A study of Homo sapiens and Mus musculus with 100 samples.

Results

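Hepatocytes are the main cells of the liver, and those studied here came from mice with a floxed Ahr gene (AhR-flox). The comparison took 3 libraries of riboflavin-deprived hepatocytes given Ad-Cont and 3 libraries of control hepatocytes given Ad-Cont. They were chosen by their labels, across all genes, and make up 6 of the 100 libraries of a series that asks how vitamin B2 (riboflavin) status and AhR, the aryl hydrocarbon receptor, shape gene expression, in which hepatocytes stand beside liver tissue and the human lines HepG2 and Caco-2. All 6 carry the same label of 4 weeks, and the labels do not say whether this is an age or a time of treatment. The same table holds 6 further libraries of AhR-flox hepatocytes, deprived and control, given Ad-Cre. In this field Ad-Cont and Ad-Cre usually denote adenoviruses without and with Cre recombinase, which cuts out floxed DNA, but the labels do not spell the names out. The floxed exon, the viral dose, the sex of the mice and the number of mice are not named in the labels. Nothing says that the 3 replicates of a group came from separate animals or cultures, so the p-values measure the spread between these libraries, which may be technical.

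Riboflavin is taken up by transporters of the Slc52 family and made into the cofactors FMN and FAD by riboflavin kinase and FAD synthetase. Flavoenzymes use these cofactors to oxidise fatty acids and amino acids, to carry electrons in the respiratory chain and to reduce glutathione and quinones. AhR is a transcription factor that binds small aromatic ligands, pairs with ARNT and switches on genes of drug metabolism, of which Cyp1a1 is the classic example. ARNT is also the partner of the hypoxia-inducible factors, which switch on glycolysis and angiogenic signals when oxygen is short.

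Levels were given as TPM, the authors' deposited abundance of a transcript relative to the library total. The listed genes held 6293300 to 7810000 reads per library, as recovered from the values to the nearest 100. Deprived replicates 2 and 3 held the most, with 7810000 and 7774000. The TPM of the listed genes summed to 577988 to 581347 per library, short of the full TPM total, so these reads may understate the full depth. A gene was called when limma's Benjamini-Hochberg adjusted p was under 0.05. Where the groups of a called gene are said not to overlap, this rests on the same libraries as the call and adds no support. Fold changes are differences of log2(TPM + 1), given as estimate ± standard error, with n = 3 libraries per group. The hepatocyte markers Alb, Apoa1 and Ttr (albumin, apolipoprotein A1 and transthyretin) stood at 798 TPM or more in each of the 6 libraries. Cyp2e1, an abundant enzyme of hepatocytes in the liver, was at only 0.264 to 2.16 TPM. These genes belong to a list of 12 hepatocyte markers, of which 2 rose and 2 fell with deprivation, with a median of −0.09. Cyp2e1 was among the falls, but its call held in only 2 of the 6 fits that each dropped 1 library. Neutrophil and lymphocyte markers did not pass the filter on low values. Deprived replicate 1 stood apart from the other deprived libraries. Its reads gave a mean chi-square per gene of 6.79 and 9.90 against theirs, where the other 10 replicate pairs of the table gave 2.43 to 4.61.

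Deprivation changed 1189 of 12155 tested genes, with 525 higher (4.32% of the genes tested) and 664 lower (5.46%). The counts of called members given for each list below are to be read against these 2 shares. Most changes were small. The median size among called genes was 0.49 on the log2 scale, and 32 genes rose and 134 fell by at least 1. Without deprived replicate 1 the counts were 460 higher and 613 lower. The higher count was 319, 324 and 314 without control replicate 1, 2 or 3, and 291 without deprived replicate 2. The lower count was 421 and 416 without control replicate 2 or 3, and 428 without deprived replicate 2. Fitting the 6 libraries alone, without the Ad-Cre libraries that help to estimate the spread, called 342 higher and 450 lower. On the first principal component of all 12 libraries, which held 24.3% of the variance, the deprived Ad-Cont libraries lay at 14.9 to 26.3 and their controls at −13.1 to −11.1. The deprived Ad-Cre libraries lay between them at 2.53 to 4.12, and the Ad-Cre controls at −14.6 to −8.82.

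**Figure D1:**
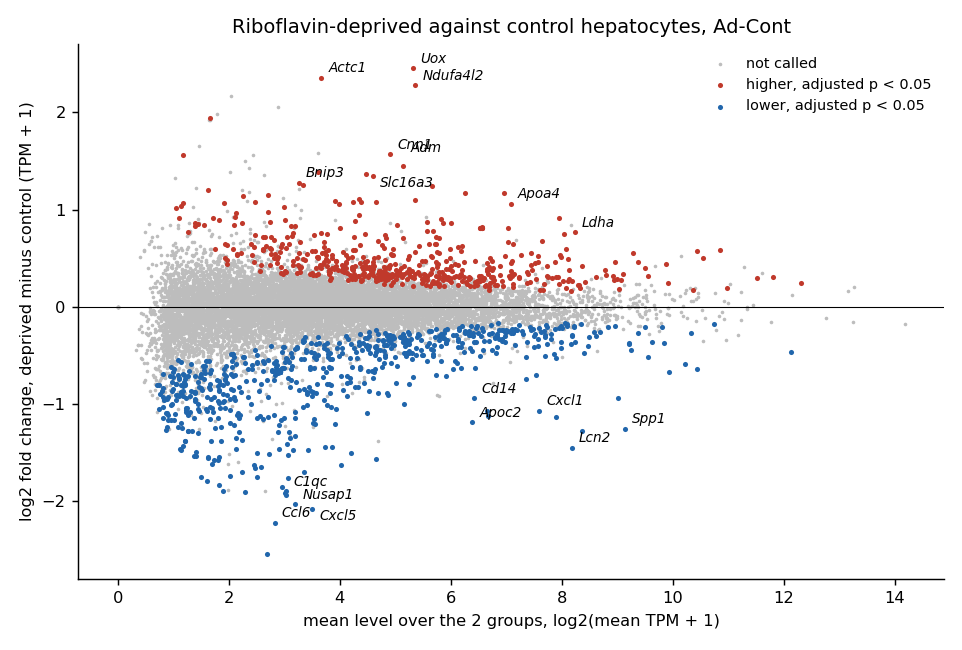
Log2 fold change of each tested gene (deprived minus control, Ad-Cont, on log2(TPM + 1)) against its mean level over both groups, log2(mean TPM + 1). Red and blue points are the 525 genes called higher and the 664 called lower, and grey points are not called. The steepest named rises are Uox, Actc1 and Ndufa4l2, and the steepest named falls Ccl6, Cxcl5 and Nusap1.

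Ahr itself did not pass the test. Its level was 10.0, 9.58 and 9.32 TPM in the controls and 10.7, 10.1 and 9.89 TPM in the deprived libraries (difference 0.08 ± 0.09, adjusted p = 0.659). The gene lies at chr12:35497979-35534989 on the minus strand in the coordinates of the authors' table. With Ad-Cre, Ahr stood at 7.13, 8.29 and 7.94 TPM in the controls and 6.78, 6.99 and 7.52 TPM in the deprived libraries, lower than in every Ad-Cont library but far from 0. The libraries read the 3′ ends of transcripts, and reads from outside the deleted part say nothing about the deletion. Arnt stood at 0.21 ± 0.09 (adjusted p = 0.159). Of the classic targets, Cyp1a1, Cyp1b1 and the repressor Ahrr were under 1 TPM in every library and were not tested. Cyp1a2, a hepatic enzyme of the same family, stood at −0.07 ± 0.20 and Tiparp, which feeds back on AhR, at 0.10 ± 0.13, and neither passed (adjusted p = 0.868 and 0.688).

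Among 11 AhR target genes, 6 were tested, 2 rose and 1 fell. The 2 that rose were Ugt1a6a and Ugt1a6b, which join glucuronic acid to drugs and phenols. Ugt1a6a stood at 64.2, 66.8 and 65.7 TPM in the controls and 118, 120.3 and 109 TPM in the deprived libraries, a rise of 0.81 ± 0.07 (adjusted p = 3.08e-06). The Ugt1a6b values were 1.42 to 1.44 times those of Ugt1a6a in all 12 libraries, so they are taken as 1 measurement of reads that the copies may share. Nqo1, a flavoenzyme that reduces quinones, went the other way. It stood at 5.98, 9.05 and 7.54 TPM in the controls and 4.69, 2.65 and 3.19 TPM in the deprived libraries, where it fell by 0.93 ± 0.18 (adjusted p = 0.00453). The groups of Nqo1 did not overlap, and its call held without any 1 of the 6 libraries.

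The 5 genes of riboflavin uptake and flavin synthesis showed no called change. Rfk, riboflavin kinase, stood at 33.3, 33.0 and 32.6 TPM in the controls and 32.6, 38.8 and 37.0 TPM in the deprived libraries, a difference of 0.12 ± 0.07 (adjusted p = 0.322). Flad1, FAD synthetase, stood at 0.12 ± 0.11, the transporter Slc52a2 at 0.08 ± 0.15, the transporter Slc52a3 at −0.01 ± 0.19 and the mitochondrial carrier Slc25a32 at 0.11 ± 0.20. Their adjusted p lay between 0.322 and 0.985.

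Of 15 genes for acyl-CoA dehydrogenases and the flavoproteins that take up their electrons, all of which use FAD to oxidise fatty acids and branched-chain amino acids, 2 rose and 0 fell. Acadm, the medium-chain enzyme, stood at 55.4, 58.2 and 62.9 TPM in the controls and 88.0, 82.3 and 69.2 TPM in the deprived libraries, a rise of 0.43 ± 0.09 (adjusted p = 0.00856). Acadsb rose by 0.29 ± 0.09 (adjusted p = 0.0476), a call lost without any 1 control replicate or deprived replicate 2 or 3 (adjusted p = 0.0813 to 0.155). The list median was 0.08, against −0.00 over all genes tested, of which 4.32% were called higher and 5.46% lower. Of 58 other tested flavoenzymes 8 rose and 1 fell. Chdh, choline dehydrogenase, rose by 0.72 ± 0.19 (adjusted p = 0.0295), a call lost without control replicate 2 or 3, or deprived library 1 or 2 (adjusted p = 0.0769 to 0.108). Fmo5, a flavin monooxygenase, stood at 13.2, 14.4 and 12.5 TPM in the controls and 23.4, 25.6 and 19.3 TPM in the deprived libraries, a rise of 0.72 ± 0.11 (adjusted p = 6.58e-04). The 8 rises depended on the libraries: they were 3, 3 and 2 without control replicate 1, 2 or 3, 4 without deprived replicate 1 and 2 without deprived replicate 2. The 1 fall was glutathione reductase, Gsr, at −0.29 ± 0.07 (adjusted p = 0.0172), lost without control replicate 1 or 2, or deprived library 2 (adjusted p = 0.0595 to 0.0785).

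The largest rise was that of Uox, urate oxidase, a peroxisomal enzyme that breaks down uric acid, at chr3:146597149-146631483. It stood at 11.9, 9.04 and 12.0 TPM in the controls and 94.6, 58.7 and 47.5 TPM in the deprived libraries, a rise of 2.45 ± 0.24 (adjusted p = 1.26e-04). Deprived replicate 1 was the highest, and the groups did not overlap. Ces1c, a carboxylesterase, rose by 1.17 ± 0.08 from 45.3, 47.3 and 46.0 TPM to 112, 109.6 and 94.6 TPM. Lipc, hepatic lipase, rose by 1.10 ± 0.09 from 24.6, 26.8 and 23.4 TPM to 62.7, 53.3 and 48.4 TPM. In neither gene did the groups overlap. Ffar4, a receptor for long-chain fatty acids, rose by 1.39 ± 0.31, with 27.9, 10.6 and 12.8 TPM in the deprived libraries, the first far above the others. Its call was lost without control replicate 1 or 3 (adjusted p = 0.0593 to 0.0672).

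Hypoxia and glycolysis genes rose together. Of 20 tested 11 rose and 0 fell, with a median of 0.46, and leaving out any 1 of the 6 libraries left 8 to 11 risen. Adm, adrenomedullin, a vasodilator peptide induced by low oxygen, stood at 16.3, 19.1 and 17.7 TPM in the controls and 65.4, 38.5 and 48.7 TPM in the deprived libraries, a rise of 1.44 ± 0.15 (adjusted p = 5.89e-05). Bnip3, which targets mitochondria for removal, went from 5.84, 3.62 and 4.26 to 16.1, 12.5 and 9.25 TPM, a rise of 1.28 ± 0.18 (adjusted p = 4.47e-04). Egln3, an oxygen-sensing hydroxylase, went from 12.4, 8.86 and 11.9 to 28.8, 23.4 and 21.3 TPM, a rise of 1.08 ± 0.13 (adjusted p = 1.02e-04). In all 3 genes every deprived library lay above every control. Ldha, lactate dehydrogenase, rose by 0.77 ± 0.10, Vegfa, the growth factor of blood vessels, by 0.73 ± 0.11, and Slc2a1, a glucose transporter, by 0.53 ± 0.10. Ankrd37 rose by 0.87 ± 0.23, a call lost without control replicate 2 or deprived replicate 1 or 2 (adjusted p = 0.0770 to 0.101). The members that did not pass include Pfkfb3 at −0.25 ± 0.14, Hk2 at −0.51 ± 0.20 and Pkm at 0.28 ± 0.12, so the rise did not extend to every glycolytic gene of the list.

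Outside that list, 2 of the strongest rises were in genes also known to respond to low oxygen. Ndufa4l2, a mitochondrial protein that lowers complex I activity, lies at chr10:127514939-127517156. It stood at 17.5, 9.14 and 12.3 TPM in the controls and 94.4, 53.5 and 54 TPM in the deprived libraries, a rise of 2.28 ± 0.26 (adjusted p = 3.77e-04). Slc16a3, the lactate exporter MCT4, stood at 13.7, 11.9 and 11.6 TPM in the controls and 45.7, 29.6 and 26.4 TPM in the deprived libraries, a rise of 1.35 ± 0.18 (adjusted p = 3.57e-04). Deprived replicate 1 was the highest of its group in both genes and in Adm, Bnip3, Egln3, Ldha and Vegfa. Nuclear genes of the respiratory chain stayed near their controls: of 56 tested 1 rose (Ndufv3, by 0.32 ± 0.05) and 4 fell, with a median of −0.07. The shares over all genes were 4.32% higher and 5.46% lower. The 4 falls were 0, 2 and 1 without control replicate 1, 2 or 3 and 1 without deprived replicate 2 or 3.

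Several genes of the contractile apparatus were among the strongest rises. Actc1, cardiac muscle actin, at chr2:114047284-114052875, stood at 2.84, 2.83 and 3.64 TPM in the controls and 15.3, 24.5 and 21.0 TPM in the deprived libraries, a rise of 2.36 ± 0.20 (adjusted p = 7.95e-06). Cnn1, a calponin of smooth muscle, went from 13.2, 13.2 and 14.8 to 31.4, 41.2 and 60.3 TPM, a rise of 1.57 ± 0.17 (adjusted p = 1.07e-04). Acta1, skeletal muscle actin, went from 10.5, 12.4 and 10.9 to 23.7, 30.8 and 38.8 TPM, a rise of 1.36 ± 0.15 (adjusted p = 9.50e-05). Here deprived replicate 1 was the lowest of its group, unlike in the hypoxia genes. Hspb6, a small heat shock protein of muscle, rose by 1.25 ± 0.12, Nexn, an actin-binding protein, by 1.11 ± 0.19 and Tpm2, a tropomyosin, by 0.91 ± 0.07. Dstn, which severs actin filaments, rose by 0.55 ± 0.05. These genes were named by their rank, not as a list, and no count over such genes is given. The stellate cell and fibroblast markers Tagln and Acta2, which are also smooth muscle genes, did not pass. Tagln stood at 22.9, 43.0 and 68.6 TPM in the deprived libraries and 23.4, 25.0 and 28.0 TPM in the controls, and Acta2 at 5.00, 8.59 and 12.2 and 13.4, 11.1 and 10.6 TPM.

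**Figure D2:**
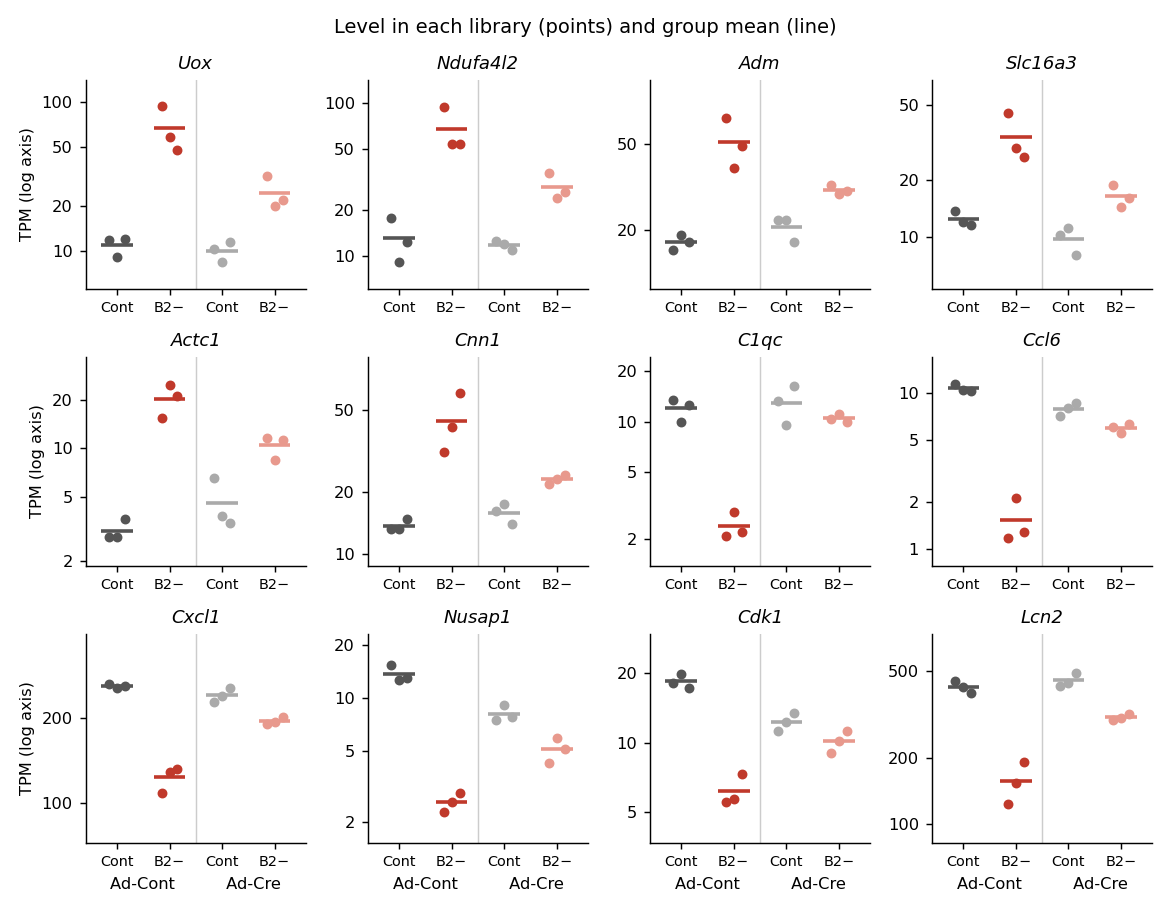
TPM of 12 genes on a log axis in each library (points, left to right replicates 1 to 3) and the mean of each group (line), for control (Cont) and riboflavin-deprived (B2−) hepatocytes with Ad-Cont and with Ad-Cre. With Ad-Cont the 3 deprived libraries lie apart from the 3 controls in all 12 genes. The 12 were picked among genes called on these same libraries, so their separation is no further support.

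Macrophage markers fell. Of 17 listed 13 were tested, 11 fell and 0 rose, with a median of −1.16 (10 or 11 fell without any 1 library). C1qa, C1qb and C1qc, which encode the chains of complement C1q and are made mainly by macrophages, fell by 1.92 ± 0.17, 1.47 ± 0.18 and 1.94 ± 0.16. C1qc stood at 13.5, 9.94 and 12.7 TPM in the controls and 2.09, 2.89 and 2.20 TPM in the deprived libraries (adjusted p = 4.30e-06). Cd5l, a secreted protein of Kupffer cells, the macrophages of the liver, went from 7.07, 6.24 and 5.29 to 0.996, 1.05 and 1.59 TPM, a difference of −1.71 ± 0.18 (adjusted p = 4.26e-05). Every deprived library lay below every control in these genes. The summed level of all 17 markers was 256 to 273 TPM in the controls and 148 to 234 TPM in the deprived libraries, most of it Cd14 and Cd68, which are not restricted to macrophages. Cd68 did not pass, with 62.2, 77.1 and 67.4 TPM in the controls and 148, 92.0 and 65.6 TPM in the deprived libraries. Without those 2 genes the sum was 81.7 to 92.5 TPM in the controls and 23.9 to 27.0 TPM in the deprived libraries. Both genes belong to the planned marker list. Clec4f and Adgre1, markers of Kupffer cells, were under 1 TPM in all 6 libraries. In bulk RNA, fewer cells of a type and less RNA per cell cannot be told apart.

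Markers of other cells moved less uniformly. Of 12 stellate cell or fibroblast markers 6 were tested and 3 fell. Dcn, the matrix protein decorin, stood at 18.0, 13.0 and 13.6 TPM in the controls and 3.46, 5.72 and 5.04 TPM in the deprived libraries, a difference of −1.48 ± 0.16 (adjusted p = 4.88e-05). The collagen genes Col1a1 and Col1a2 stood at −0.64 ± 0.19 and −0.88 ± 0.20 (adjusted p = 0.0420 and 0.0136). The Col1a1 call was lost without any 1 control replicate or deprived replicate 1 or 2 (adjusted p = 0.0743 to 0.138), and the Col1a2 call without control replicate 3 or deprived replicate 2 (adjusted p = 0.0559 to 0.0625). The 3 falls were 1 without control replicate 3 or deprived replicate 2. Of 8 endothelial markers tested 0 passed (7 were below 0, with a median of −0.20), and of 4 cholangiocyte markers 1 fell, Krt19, at −1.03 ± 0.21 (adjusted p = 0.00952).

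Of 16 chemokine and NF-kB feedback genes 6 fell and 0 rose (5 to 7 without any 1 library), with a median of −0.13. The 6 were the chemokines Cxcl1, Cxcl2, Cxcl5, Ccl2, Ccl7 and Ccl9, which draw neutrophils or monocytes, and the chemokines Ccl20 and Cxcl16 did not pass, at −0.92 ± 0.35 and 0.05 ± 0.06. Cxcl5 stood at 17.4, 17.7 and 16.7 TPM in the controls and 3.88, 3.77 and 2.43 TPM in the deprived libraries, a difference of −2.09 ± 0.16 (adjusted p = 3.08e-06). Cxcl1, a chemokine of neutrophils, stood at 264, 255 and 259 TPM in the controls and 109, 129 and 132 TPM in the deprived libraries, a difference of −1.07 ± 0.07 (adjusted p = 5.92e-07). Cxcl2, Ccl7, Ccl9 and Ccl2 fell by 1.50 ± 0.11, 1.70 ± 0.19, 1.01 ± 0.13 and 0.94 ± 0.20. The Ccl2 call was lost without any 1 control replicate (adjusted p = 0.0501 to 0.0581). The feedback genes did not pass: Nfkbia, Relb and Nfkb2 stood at 0.12 ± 0.04, 0.12 ± 0.08 and 0.06 ± 0.28. Icam1, Nfkbiz, Tnfaip3, Nfkb1 and Birc3 stood at −0.01 ± 0.07, −0.03 ± 0.09, −0.04 ± 0.15, −0.10 ± 0.09 and −0.16 ± 0.16. Ccl6, a chemokine of myeloid cells that belongs to no list, had the largest fall of the genes that reached a mean of 10 TPM. It lies at chr11:83587886-83593087 and stood at 11.3, 10.4 and 10.3 TPM in the controls and 1.18, 2.12 and 1.29 TPM in the deprived libraries, a difference of −2.22 ± 0.14 (adjusted p = 5.92e-07). Tff1, a trefoil peptide with a control mean of 9.90 TPM, fell further, by 2.55 ± 0.33, and was named after its values were seen. Wfdc17, also known from myeloid cells, stood at −1.77 ± 0.37, a call lost without control replicate 1 or 3, or deprived library 2 (adjusted p = 0.0534 to 0.0623). The macrophage marker sum without Cd14 and Cd68 moved the same way, 81.7 to 92.5 TPM against 23.9 to 27.0 TPM. With them it was 256 to 273 TPM against 148 to 234 TPM. The part of either sum in the fall of these 6 chemokines was not tested.

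Acute phase proteins, which the liver secretes in inflammation, fell more often than they rose: of 24 tested 8 fell and 1 rose, with a median of −0.38. Lcn2, lipocalin 2, stood at 449, 419.7 and 396 TPM in the controls and 123, 153 and 192 TPM in the deprived libraries, a difference of −1.45 ± 0.12 (adjusted p = 1.52e-05). Orm1, orosomucoid, stood at 142, 131 and 132 TPM in the controls and 73.4, 59.6 and 58.1 TPM in the deprived libraries, a difference of −1.08 ± 0.11 (adjusted p = 3.05e-05). Saa3, a serum amyloid, fell by 1.28 ± 0.24, and the 3 fibrinogen chains Fga, Fgb and Fgg by 0.51 ± 0.08, 0.46 ± 0.06 and 0.53 ± 0.09. Hamp, the iron hormone hepcidin, stood at −0.52 ± 0.12, a call lost without control replicate 1 or 3, or deprived library 1 or 2 (adjusted p = 0.0510 to 0.0989). Haptoglobin and complement C3 did not pass, at −0.12 ± 0.06 and 0.11 ± 0.08. The 8 falls were 6 to 10 without any 1 library. The 1 rise, Itih3 at 0.32 ± 0.08, became 5 rises without deprived replicate 1 and 0 without any control replicate or deprived replicate 2 or 3.

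Interferon-stimulated genes gave 7 falls and 0 rises of 27, with a median of −0.30. Cxcl10 stood at 62.7, 66.6 and 63.8 TPM in the controls and 49.7, 36.1 and 33.1 TPM in the deprived libraries, a difference of −0.71 ± 0.12 (adjusted p = 0.00202), and Oasl2, Isg15 and Psmb9 fell by 0.87 ± 0.14, 0.63 ± 0.12 and 0.61 ± 0.12. Deprived replicate 1 lay nearest the controls in Cxcl10, Isg15 and Oasl2, and without it 15 of the list fell. Without deprived replicate 2 the count was 4.

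Cell cycle genes fell. Of 26 tested 17 fell and 0 rose, with a median of −0.74, and leaving out any 1 library gave 14 to 18. Cdk1, the kinase of mitotic entry, stood at 18.2, 19.8 and 17.4 TPM in the controls and 5.50, 5.70 and 7.29 TPM in the deprived libraries, a difference of −1.45 ± 0.12 (adjusted p = 3.08e-06). Birc5, survivin, went from 11.4, 11.6 and 11.4 to 2.32, 3.91 and 3.93 TPM, a difference of −1.53 ± 0.15 (adjusted p = 2.57e-05). Top2a, Aurka, Plk1 and Mki67, of chromosome separation and proliferation, fell by 1.20 ± 0.11, 1.35 ± 0.11, 1.33 ± 0.18 and 0.69 ± 0.17. The Mki67 call was lost without control replicate 1 or 2, or deprived library 2 (adjusted p = 0.0601 to 0.0741). Among the replication genes of the list Mcm3 and Mcm5 fell by 0.41 ± 0.09 and 0.56 ± 0.12, whereas Mcm6, Mcm7 and Pcna did not pass, at −0.08 ± 0.09, −0.20 ± 0.06 and −0.29 ± 0.21. Outside the list Nusap1, which bundles spindle microtubules, stood at 15.4, 12.6 and 13.1 TPM in the controls and 2.29, 2.57 and 2.93 TPM in the deprived libraries, a difference of −2.03 ± 0.13 (adjusted p = 5.92e-07). Cdca3 and Cenpa, a mitotic regulator and the centromere histone, fell by 1.89 ± 0.14 and 1.19 ± 0.11. Which cells of the culture held these transcripts was not tested. In the same libraries 11 of 13 tested macrophage markers and 3 of 6 tested stellate cell or fibroblast markers fell. The summed level of the stellate cell or fibroblast markers overlapped, at 60.51 to 65.95 TPM in the controls and 36.31 to 93.62 TPM in the deprived libraries.

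**Figure D3:**
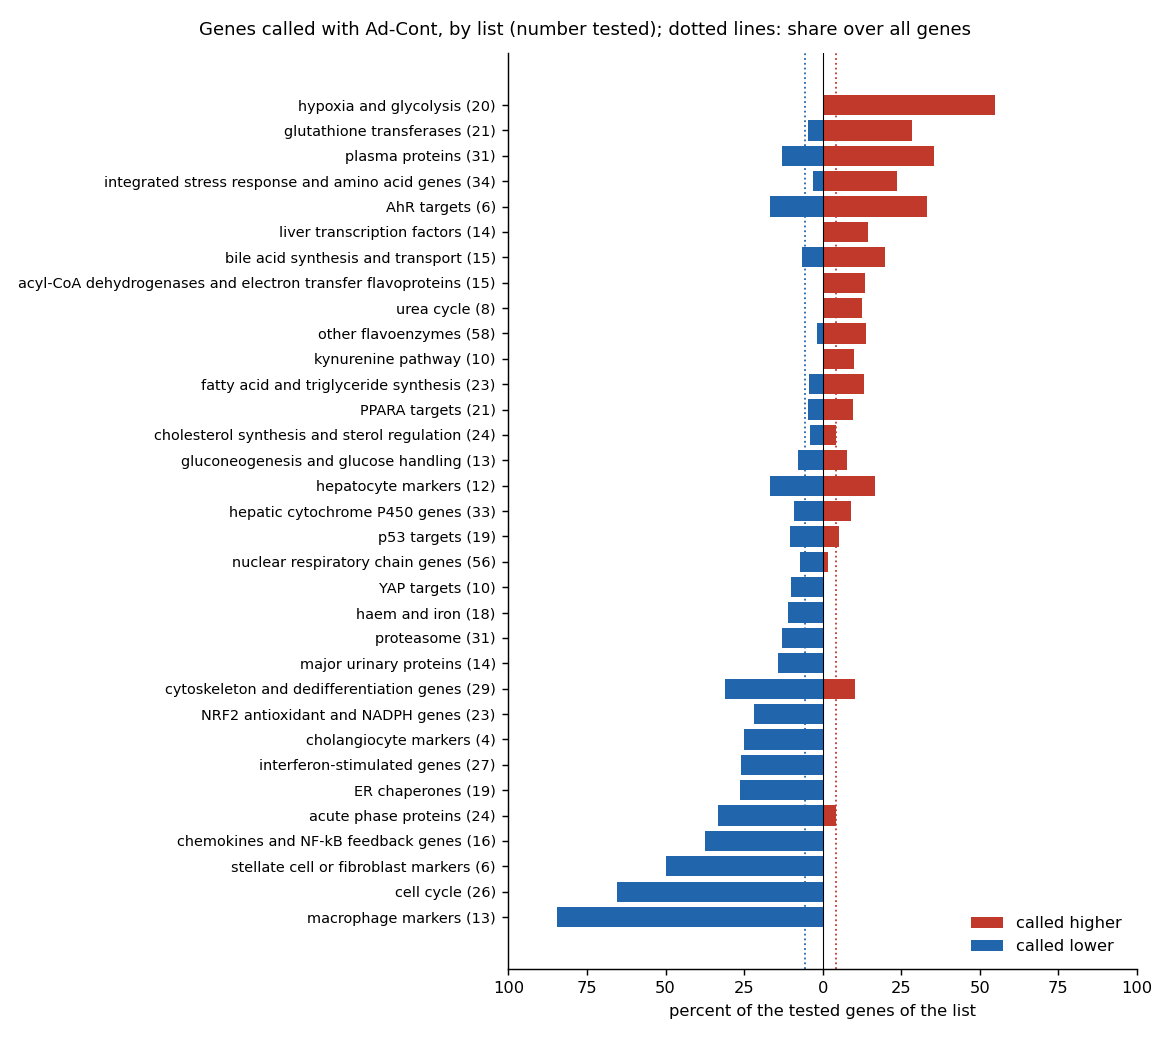
Percent of the tested genes of each list that were called higher (red, right) or lower (blue, left) in deprived hepatocytes with Ad-Cont, with the number tested in brackets. Dotted lines mark the shares over all 12155 genes, 4.32% higher and 5.46% lower. Hypoxia and glycolysis genes stand at the top with 11 of 20 higher, and macrophage markers at the bottom with 11 of 13 lower.

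Plasma proteins split in both directions, with 11 of 31 higher and 4 lower (7 higher without control replicate 1 or deprived replicate 2). Apoa4, an apolipoprotein, stood at 92.7, 89.4 and 78.8 TPM in the controls and 189, 179 and 179 TPM in the deprived libraries, a rise of 1.06 ± 0.07 (adjusted p = 5.92e-07). The coagulation factors F10 and F9 rose by 0.70 ± 0.10 and 0.65 ± 0.08, and Rbp4, the retinol carrier, by 0.57 ± 0.09. Apoc2, the activator of lipoprotein lipase, went the other way, with 118, 119.5 and 106 TPM in the controls and 40.9, 52.9 and 56.9 TPM in the deprived libraries, a difference of −1.19 ± 0.14 (adjusted p = 1.96e-04). Transthyretin, Ttr, fell by 0.59 ± 0.10. Albumin stood at 0.19 ± 0.05, a call lost without control replicate 1 or 3, or deprived library 2 (adjusted p = 0.10 to 0.13).

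Lipid and bile acid genes gave a few called changes. Scd1, which makes monounsaturated fatty acids, stood at 34.2, 32.5 and 30.7 TPM in the controls and 57.8, 59.6 and 63.2 TPM in the deprived libraries, a rise of 0.87 ± 0.09 (adjusted p = 2.06e-05). Gpam, the first enzyme of glycerolipid synthesis, rose by 0.41 ± 0.07. In the list of 23 fatty acid and triglyceride genes 3 rose and 1 fell, where 4.32% rose and 5.46% fell over all genes. Of 24 cholesterol genes 1 rose and 1 fell, shares near those over all genes. The fatty acid fall, Dgat2 at −0.51 ± 0.12, was lost without control replicate 1 or deprived replicate 2 or 3 (adjusted p = 0.0512 to 0.0649). The cholesterol rise, Sc5d at 0.23 ± 0.07, was lost without any 1 library other than deprived replicate 3 (adjusted p = 0.0826 to 0.180), and the fall, Dhcr7 at −0.44 ± 0.10, without control replicate 3 or deprived replicate 1 (adjusted p = 0.0506 to 0.0588). Of 15 bile acid genes 3 rose and 1 fell, and 0 rose without control replicate 3. Nr0b2, a repressor of bile acid synthesis, stood at 8.64, 7.43 and 9.96 TPM in the controls and 4.35, 2.97 and 3.13 TPM in the deprived libraries, a difference of −1.11 ± 0.13 (adjusted p = 1.36e-04). Cyp8b1, an enzyme of bile acid synthesis, stood at 1.86, 1.72 and 1.87 TPM in the controls and 9.69, 4.05 and 3.40 TPM in the deprived libraries, a rise of 1.14 ± 0.27 (adjusted p = 0.0168). That call was lost without control replicate 2 or 3 (adjusted p = 0.0508 to 0.0567). Of 21 PPARA targets 2 rose and 1 fell, where 4.32% rose and 5.46% fell over all genes. Acot2, an acyl-CoA thioesterase, rose by 0.64 ± 0.07. The PPARA rises were 1 without control replicate 1 or 2, or deprived library 1 or 2, and the fall was lost without any 1 library other than deprived replicate 3.

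Glutathione transferases gave 6 rises and 1 fall of 21. Gstm3 stood at 9.40, 9.06 and 7.47 TPM in the controls and 18.4, 20.2 and 19.6 TPM in the deprived libraries, a rise of 1.09 ± 0.11 (adjusted p = 2.03e-05), and Gstm2 rose by 0.90 ± 0.10. Members of the Gstm cluster are close copies and may share reads. The 23 NRF2 antioxidant and NADPH genes gave 0 rises and 5 falls, among them Nqo1, Taldo1 of the pentose phosphate pathway at −0.42 ± 0.08 and the ferritin light chain Ftl1 at −0.36 ± 0.08. Those 5 were 9 without deprived replicate 1 and 3 without deprived replicate 2. The integrated stress response, with 34 genes tested, gave 8 rises and 1 fall (5 rose without control replicate 1). Atf5 stood at 234, 201 and 210.2 TPM in the controls and 323, 313 and 338 TPM in the deprived libraries, a rise of 0.59 ± 0.08 (adjusted p = 3.33e-04). Atf3 rose by 0.52 ± 0.10, while Atf4 and Ddit3 did not pass, at 0.16 ± 0.05 and 0.08 ± 0.12. ER chaperones gave 5 falls of 19, led by Pdia6 at −0.49 ± 0.06 and Manf at −0.42 ± 0.06. Those 5 were 3 without control replicate 2 or 3 and 8 without deprived replicate 1.

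Genes of the cytoskeleton and of hepatocyte dedifferentiation gave 9 falls and 3 rises of 29. S100a6 and Lgals1, which rise in dedifferentiating or injured liver cells, fell by 0.64 ± 0.11 and 0.67 ± 0.10, and Afp, alpha-fetoprotein, by 0.89 ± 0.17. Spp1, osteopontin, stood at 725, 791 and 814 TPM in the controls and 197, 356 and 486 TPM in the deprived libraries, a difference of −1.26 ± 0.27 (adjusted p = 0.0223). That call was lost without any 1 control replicate or deprived replicate 2 (adjusted p = 0.0559 to 0.0704). The 9 falls were 5 without control replicate 3 or deprived replicate 2, and the 3 rises were 1 without control replicate 1 and 7 without deprived replicate 1. Of 14 liver transcription factors tested 2 rose and 0 fell, with a median of 0.08, where 4.32% rose and 5.46% fell over all genes. Ppara, the receptor that switches on fatty acid oxidation, rose by 0.50 ± 0.13 and Onecut1 by 0.29 ± 0.08. The Ppara call was lost without control replicate 1 or 2, or deprived library 1 or 2 (adjusted p = 0.0582 to 0.0939), and that of Onecut1 without any 1 library other than deprived replicate 2 (adjusted p = 0.0519 to 0.111). Hnf4a, Foxa2 and Prox1 did not pass, at −0.14 ± 0.08, 0.01 ± 0.08 and 0.08 ± 0.08. Ly6a, a surface protein of stem and immune cells that is in no list, fell by 1.62 ± 0.18.

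The same deprivation with Ad-Cre called 26 genes higher (0.214%) and 14 lower (0.115%). No library is shared between the 2 comparisons, but both use the same estimate of each gene's spread, taken from all 12 libraries. The 2 sets of calls are thus not independent. Of the 40 genes called with Ad-Cre, 31 were called in the same direction with Ad-Cont. That is 77.5% of the Ad-Cre calls and 2.61% of the 1189 Ad-Cont calls. Over all genes tested, Ad-Cont called 4.32% higher and 5.46% lower. The genes in both sets include Apoa4, Ces1c, Lipc, Gstm3, F10, Actc1 and Ugt1a6a among the rises, and Cdca3 and Dcn among the falls. Of the 1189 genes 937 had the same sign with Ad-Cre (78.8%, against 57.6% of all genes tested). The 525 higher genes had a median of 0.40 with Ad-Cont and 0.09 with Ad-Cre, and the 664 lower genes −0.63 and −0.18. They were chosen by their Ad-Cont values, so the larger Ad-Cont medians are a description and no test. Across the 12155 genes, which share libraries and are not independent, the fold changes of the 2 comparisons correlated with r = 0.34.

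The difference itself was tested as an interaction, the Ad-Cre effect minus the Ad-Cont effect. It was above 0 in 22 genes (0.181%) and below 0 in 8 (0.0658%). All 22 were called lower with Ad-Cont, against 5.46% of all genes, and 7 of the 8 were called higher, against 4.32%. In 29 of the 30 the Ad-Cre fold change was nearer 0. The interaction subtracts the Ad-Cont effect and so tends to pick such genes. These counts are a description and no test. Ccl6 stood at 7.11, 7.97 and 8.64 TPM in the Ad-Cre controls and 6.03, 5.49 and 6.29 TPM in the deprived Ad-Cre libraries, and its interaction was 1.86 ± 0.19 (adjusted p = 0.00110). C1qc stood at 13.2, 9.55 and 16.2 and 10.4, 11.0 and 9.91 TPM, with an interaction of 1.68 ± 0.23 (adjusted p = 0.00506). Nusap1, Cdk1 and Cenpa of the cell cycle had interactions of 1.45 ± 0.18, 1.19 ± 0.16 and 1.22 ± 0.16, and Cxcl1 and Cxcl2 of 0.78 ± 0.10 and 1.20 ± 0.16. For Ccl6, Cxcl2, Nusap1, Cdk1 and Cenpa every Ad-Cre control was already lower than every Ad-Cont control. Nusap1 stood at 7.56, 9.15 and 7.78 TPM in the Ad-Cre controls and 4.33, 5.96 and 5.14 TPM with deprivation. Ccl6, C1qc, Nusap1, Cdk1, Cenpa, Cxcl1 and Cxcl2 were among 11 genes whose interaction was called without any 1 of the 12 libraries. The other 19 calls were each lost in some, such as Acta1 at −1.16 ± 0.22 (adjusted p up to 0.126) and Ly6a at 1.68 ± 0.26 (up to 0.0649). The 22 were 10 to 12 without Ad-Cont control replicate 1, 2 or 3, Ad-Cre control replicate 1 or 2 or Ad-Cre deprived replicate 1 or 3. They were 36, 111 and 102 without Ad-Cont deprived replicate 3, Ad-Cont deprived replicate 1 or Ad-Cre control replicate 3. The 8 were 1 to 3 without those same 7 libraries or Ad-Cre deprived replicate 2, and 58 and 84 without Ad-Cont deprived replicate 1 or Ad-Cre control replicate 3.

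Without Cd14 and Cd68 the macrophage marker sum was 85.3 to 105 TPM in the Ad-Cre controls. In the deprived Ad-Cre libraries it was 64.6 to 73.3 TPM. The sum of all 17 markers was 242 to 257 TPM and 217 to 249 TPM, and these ranges overlapped. The gap of either sum was thus narrower than with Ad-Cont, as it was for Ccl6 and C1qc. C1qc is itself a member of both sums, so its likeness to them is built in and adds no support. The part of either sum in the interaction was not tested. Of the 20 hypoxia and glycolysis genes 0 were called with Ad-Cre, with a median of 0.15 against 0.46 with Ad-Cont. None had a called interaction and its median was −0.31, so a difference between Ad-Cont and Ad-Cre was neither shown nor excluded for these genes. Ndufa4l2 stood at 12.4, 11.9 and 10.8 TPM in the Ad-Cre controls and 34.7, 23.8 and 26.1 TPM with deprivation, a difference of 1.18 ± 0.26 (adjusted p = 0.107), and its interaction of −1.10 ± 0.36 did not pass (adjusted p = 0.242). Uox behaved alike, with 10.2, 8.39 and 11.4 TPM and 31.7, 20.1 and 21.9 TPM, a difference of 1.20 ± 0.24 (adjusted p = 0.0807) and an interaction of −1.26 ± 0.34 (adjusted p = 0.169).

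**Figure D4:**
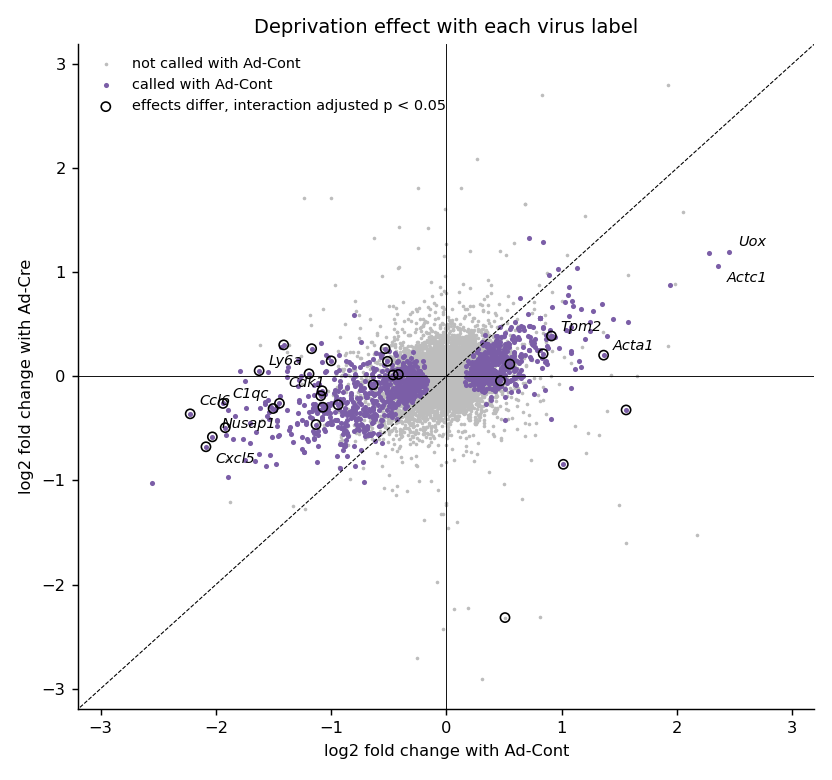
Log2 fold change on deprivation with Ad-Cre (vertical) against that with Ad-Cont (horizontal) for each of 12155 genes, on log2(TPM + 1). Purple points are the 1189 genes called with Ad-Cont, black rings the 30 genes whose effects differ in the interaction test, and the dashed line marks equal effects. Purple points lie mostly between the dashed line and the horizontal axis.

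In HepG2, a human liver tumour line of the same series, deprivation for 12 days called 34% of 12488 tested genes higher and 18.4% lower. The tables were made separately, so no difference between them was tested. Genes were matched by symbol. Of the 525 genes higher in the hepatocytes 408 were tested in HepG2, of which 32.1% were called higher there and 29.4% lower, and of the 664 lower genes 442 were tested, of which 14.3% were called lower and 52.9% higher. The genes called in the same direction in both make up 3.81% of the 5087 HepG2 calls that had a tested mouse symbol. Set side by side, NQO1 stood at 1.73 ± 0.06 in HepG2 and Nqo1 at −0.93 ± 0.18 in the hepatocytes. SPP1 stood at 6.55 ± 0.08 in HepG2 and Spp1 at −1.26 ± 0.27 in the hepatocytes. Of the 26 cell cycle genes 20 were called higher in HepG2 and 0 lower. Of 19 hypoxia and glycolysis genes tested there, 4 were called higher and 6 lower.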

How the data were processed

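RNA was read from transcript 3′ ends (QuantSeq kit on total RNA, per the labels' protocols), and the authors deposited TPM per gene with transcript lengths, made with HOMER per the file headers. The submitters' processing notes list STAR, HOMER, Bowtie2, hg38 and mm10 without roles or versions. TPM from a 3′ kit depends on transcript length, so the tests compared libraries and not genes. The marker sums, the cut of 10 TPM and remarks on high or low levels do set genes beside each other and carry that dependence. TPM times length gave whole reads within 0.1 for 100% of 38226 low values checked.

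Of 24940 genes listed, 12155 with TPM of at least 1 in at least 3 of 12 hepatocyte libraries were tested with limma 3.58.1 (R 4.3.3) on log2(TPM + 1). The 4 group means were fitted together, with trended, robust empirical Bayes, two-sided tests and Benjamini-Hochberg adjustment over all genes. HepG2 was fitted separately over 24 libraries.

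Genes were named by a rule: AhR and riboflavin genes, the 15 highest and 15 lowest called changes with a group mean of at least 10 TPM, up to 5 called members per list, and up to 8 interactions in each direction. A gene that the rule names is not reported here. Members that did not pass were named where needed, and some further called members outside the rule were chosen after their values were seen. The comparison and the 40 gene lists were chosen with earlier results of these data known. A liver table was not used because 8 of its columns could not be tied to samples.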

Additional observations from a re-analysis of the deposited data

Results flagged for a closer look

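The deprivation effect differed between Ad-Cre and Ad-Cont by limma's interaction test in 19 of the genes named by rule. Each value is the Ad-Cre log2 fold change minus the Ad-Cont log2 fold change. Among macrophage and myeloid genes it was 1.86 for Ccl6, 1.68 for C1qc and 1.43 for C1qa, and it was 1.68 for Ly6a. The chemokines stood at 1.41 (Cxcl5), 1.20 (Cxcl2) and 0.78 (Cxcl1). Cell cycle genes stood at 1.45 (Nusap1), 1.22 (Cenpa) and 1.19 (Cdk1), and Lockd, a noncoding RNA, at 1.71. The acute phase genes Orm1 and Fgg stood at 0.94 and 0.80, and the ER factor Manf at 0.44. Values below 0 were those of the actin-related genes Acta1 (−1.16), Tpm2 (−0.52) and Dstn (−0.43), and of Endod1 (−0.62) and Camk2n1 (−0.51). Only 7 of the 19 (Ccl6, C1qc, Cxcl1, Cxcl2, Nusap1, Cdk1 and Cenpa) were called without any 1 of the 12 libraries. The other 12 were called in 3 to 6 of those 12 fits, with an adjusted p of up to 0.126 for Acta1. The cause of these differences was not tested.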

How the results depend on the processing

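The 525 higher and 664 lower calls became 801 and 872 with voom on recovered reads, and 342 and 450 in the fit of the 6 Ad-Cont libraries alone. Leaving out each of the 6 libraries gave 291 to 460 higher and 416 to 651 lower. The interaction counts of 22 above 0 and 8 below 0 became 11 and 5 with no filter, 39 and 13 with TPM of at least 5, and 82 and 67 with voom. They were 10 to 111 and 1 to 84 without any 1 of the 12 libraries. The cause of these shifts was not tested. A pseudocount of 0.1, quantile normalization and median scaling kept all 4 counts within 1.5 times, and the median over all genes moved by less than 0.1. None of the 155 called named genes changed direction under any alternative run in which it was tested, and 99 were called in all 6 leave-one-out fits.

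With the replicate number as a block, 499 genes were higher and 648 lower, and the interaction gave 29 above and 14 below 0. Over 18 same-number pairs of libraries, deviations from the group means correlated between −0.087 and 0.077. Within Ad-Cont the same-number values were 0.077, 0.012 and 0.036, and those of different number lay between −0.069 and 0.041. With 3 libraries per group, such values cannot settle whether the numbers pair the samples. The planned liver alternatives were not run, since that table was not used. The 3 libraries per group and 6293300 to 7810000 reads per library on the listed genes limit what could be detected, chiefly for genes near 1 TPM.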
